A study of Macaca fascicularis with 8 samples.

Results

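Chromatin accessibility of the colon was compared with that of heart, lung and uterus in a healthy cynomolgus monkey, using the 12404 colon barcodes with at least 1000 counts in peaks, of 36511 such barcodes in the 4 organs and 78917 in all 8 libraries. Peaks of the 4 organs that overlapped by at least 1 bp were merged into 162675 regions, and the comparison was made over the 23078 regions (14.2%) that held a peak of every one of the 4 libraries. The 4 libraries came from the adult female monkey, with condition given as normal, as did 1 of the liver libraries. Kidney, spleen and the other liver library came from the adult male, and both animals were 4 years old. Each organ was represented by 1 library except liver with 2, so that organ and library cannot be told apart and no test between organs was possible. Organ pieces had been dissociated with enzymes and red blood cells lysed before the droplet assay. The barcodes of 1 library are not replicates of an organ, and p-values are therefore not given.

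In single-cell ATAC sequencing, the Tn5 transposase cuts DNA that is not packed by nucleosomes, and the fragments of 1 droplet carry 1 barcode. Open regions comprise the promoters of active genes, many of which are shared by most cell types, and enhancers, which are mostly open in particular cell types. The colon wall holds absorptive and secretory epithelium, a dense population of lymphocytes, plasma cells and myeloid cells in its mucosa, and fibroblasts, smooth muscle and endothelium beneath it. The genome build of the peaks is stated neither in the labels nor in the methods, and the gene table at hand is from another assembly, so positions are those of the deposited peaks counted from 1, regions carry no gene name except at 2 loci whose positions the study printed, and the colon label could not be checked against lists of marker genes.

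The colon library was the deepest of the 4, with 110748462 counts of cut ends in 108470 peaks, a median of 7446 counts per barcode and a lowest count of 1797, so that all deposited colon barcodes passed. Heart, lung and uterus kept 5220, 13117 and 5770 barcodes with 52904154, 102697781 and 41721017 counts. At the limit, the heart barcodes nearest to it held 999 and 1000 counts. Between 107 (uterus) and 224 (lung) barcodes had the same sequence as a colon barcode, between 1.65% and 2.04% of each of the 3 libraries, and they were treated as separate cells. Of the counts, 61.5% in colon, 71.8% in heart, 70.7% in lung and 88.3% in uterus lay in the shared regions. Colon also had the largest number of regions of its own, with 50817 regions that held only a colon peak. Lung was the organ it shared most with in pairs (13561 regions with a colon and a lung peak only, against 3616 with heart and 1557 with uterus), while 1222 regions had a peak in the 3 other organs and none in colon. These numbers rise with the number of peaks called, which was 68713 in heart, 83244 in lung and 37159 in uterus.

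Levels are given as CPM, the counts for every 1000000 counts of the library in shared regions, and ratios were taken after adding 0.5 CPM. Over the 23076 regions with at least 200 counts in the 4 libraries, most regions lay within 2-fold of the other organ, namely 17125 (74.2%) against lung, 15313 (66.4%) against heart and 14644 (63.5%) against uterus. The Pearson correlation of log2 levels across these regions was 0.80 with lung, 0.67 with heart and 0.67 with uterus, as a description across regions that share 2 libraries. Among these shared regions, those lower in colon outnumbered those higher in colon in each pair. The 50817 regions with only a colon peak were left out, as were the 1222 with a peak in the 3 others and none in colon. The numbers therefore do not give the balance over all colon peaks. Against heart, 2189 regions (9.49%) were at least 2-fold higher and 5574 (24.2%) at least 2-fold lower. The corresponding numbers were 1632 (7.07%) and 4319 (18.7%) against lung, and 3267 (14.2%) and 5165 (22.4%) against uterus.

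A region was called colon-high when its level was at least 2-fold above the highest of the 3 other organs, and colon-low when it was at least 2-fold below the lowest. This held for 691 colon-high regions (2.99% of those tested) and 2512 colon-low regions (10.9%), while 6215 regions (26.9%) were within 1.5-fold over all 4 organs. The values next to the limit were 2.002-fold inside and 1.999-fold outside for colon-high regions. The calls describe these 4 libraries, since they were chosen on these levels. They cover only regions with a peak in all 4, so that regions with only a colon peak could not be called colon-high. When levels were scaled to the counts in all peaks, which lowers the median colon ratios (log2 medians of -0.24, -0.25 and -0.51 to heart, lung and uterus, against -0.02, -0.05 and -0.0044), 392 regions were colon-high and 3322 colon-low, and the share of colon-high regions among the calls went from 21.6% to 10.6%.

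Colon-high regions had a median of 58.2 CPM in colon, 12.2 in heart, 16.7 in lung and 10.5 in uterus. They held 4.97% of the colon counts in shared regions and between 1.09% and 1.55% of those of the other organs. Lung was the next highest organ in 379 of them, heart in 186 and uterus in 126. Colon-low regions had medians of 4.05 CPM in colon, 28.2 in heart, 20.7 in lung and 22.9 in uterus, and held 1.77% of the colon counts against 7.51% to 9.77% elsewhere. Their highest level was most often that of heart (1226 regions), followed by uterus (803) and lung (483). How often each organ ranks first over all tested regions was not counted, so that nothing is read from either order.

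The length covered by peaks moved with these calls. Because peaks were called in each library separately, a merged region can be covered along its whole length by colon peaks and only at a short stretch by those of another organ, and counts outside a library's own peaks are not in its sum. In colon-high regions the colon peaks covered a median of 2728 bp, against 666 bp in heart, 1117 bp in lung and 429 bp in uterus, and colon covered the longest stretch in 690 of the 691 (45.1% of the tested regions). Per kb covered, the medians were 21.5 CPM in colon, 17.0 in heart, 14.4 in lung and 24.5 in uterus. Colon was highest per covered kb in 218 colon-high regions (31.5%, against 5.21% of tested regions), and only 11 (1.59%, with 0.0477% of tested regions) were also at least 2-fold higher per covered kb. Among the 12637 regions in which the colon peaks covered between 0.5 and 2 times the length in each other organ, 15 were colon-high (0.119%). Per covered kb, colon lay within the range of the 3 other organs in 395 colon-high regions (57.2%, against 36.7% of tested regions) and below it in 78 (11.3%, against 58.1%). Colon was also the deepest of the 4 libraries and the one with the most peaks, and the part of depth in the covered length was not tested.

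In colon-low regions the covered length moved with the calls too, with colon covering the shortest stretch in 1689 (67.2%, against 10.8% of tested regions). The covered length was a median of 558.5 bp in colon, 1174.5 bp in heart, 1164 bp in lung and 775 bp in uterus. The level per covered kb was 6.70 CPM in colon, 22.3 in heart, 15.8 in lung and 27.3 in uterus. A lower colon value is favoured by the choice, since this level is the CPM they were chosen on divided by the covered length. Colon was also lowest per covered kb over all tested regions, with medians of 17.0 CPM in colon, 24.4 in heart, 19.5 in lung and 30.6 in uterus. Of the 2512, 2497 (99.4%, against 58.1% of tested regions) were lowest in colon per covered kb and 1517 (60.4%) were also at least 2-fold lower (9.26% of tested regions). Among the 12637 regions of like covered length, 1071 (8.48%) were colon-low. Colon-low regions also lay near each other, with another colon-low region within 100 kb for 1421 (56.6%), while 32.7% of tested regions had a colon-low neighbour at that distance. For colon-high regions the corresponding shares were 22.4% and 11.5%. By chromosome, colon-low regions made up between 4.87% (X) and 14.3% (15) of the tested regions and colon-high regions between 1.97% (19) and 4.33% (13).

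**Figure D1:**
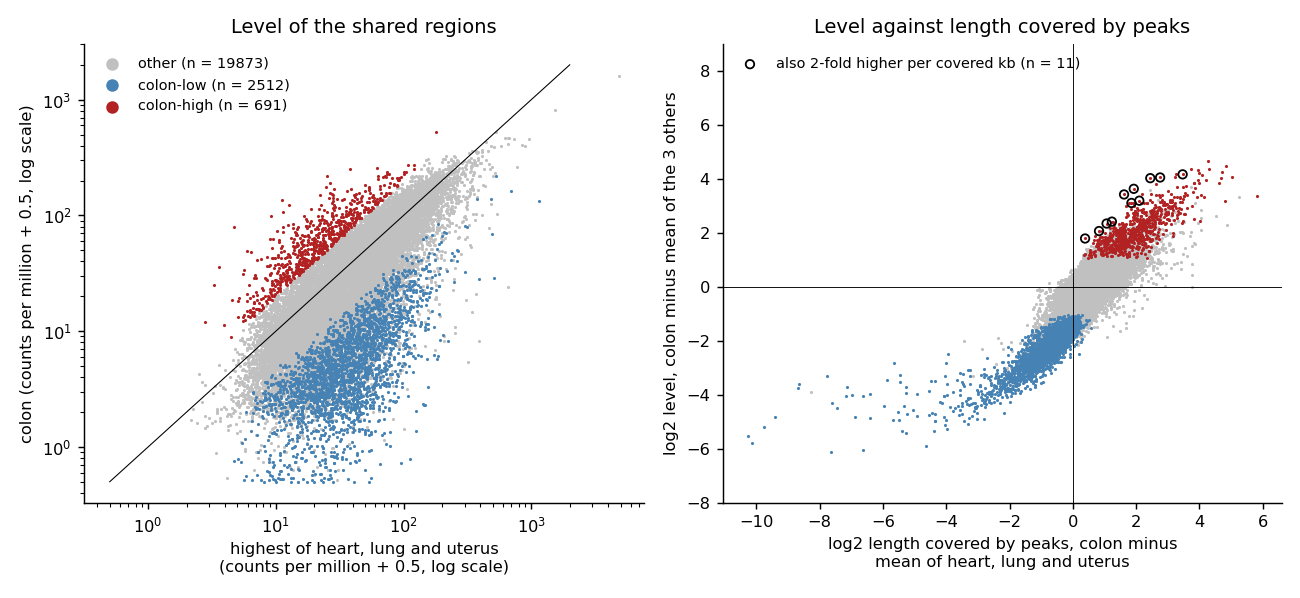
Levels of the 23076 tested regions, with each point a region, colon-high regions in red and colon-low regions in blue, as colon against the highest of heart, lung and uterus (left, CPM + 0.5, log axes) and as log2 level against log2 length covered by peaks (right, both as colon minus the mean of the 3 others). In the right panel, colon-high points lie to the right of 0, where colon peaks are longer, and the 11 circled regions are those also 2-fold higher per covered kb.

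The 10 named colon-high regions had the largest ratios among regions with at least 50 CPM in any of the 4 organs. The first, chr13:64991080-64996828, had 78.5 CPM in colon (exact Poisson interval at 95% 75.6 to 81.6, counting error only), 3.32 in heart, 2.01 in lung and 4.21 in uterus. Colon was 16.8-fold above the highest of the others, with colon peaks over all 5749 bp and peaks of 239, 194 and 170 bp in heart, lung and uterus. Per covered kb the values were 13.7, 13.9, 10.4 and 24.7 CPM, so that colon was not the highest. The region had 36.0 CPM in kidney and 32.3 in the male liver and no peak in spleen, and 14.2% of colon barcodes held a count in it.

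The second, chr6:116867583-116876719, had 137 CPM in colon, 10.7 in heart, 7.26 in lung and 9.72 in uterus, a 12.2-fold ratio. Its colon peaks covered 9137 bp against 407 to 831 bp in these 3 organs. The female liver had 172 CPM there, above colon, spleen 84.8, kidney 20.9 and the male liver 10.5. The widest of the 10, chr15:44822655-44835558, had 220.1 CPM in colon, 16.4 in heart, 24.4 in lung and 24.1 in uterus, and its colon peaks covered 12904 bp against 606 to 1364 bp. It reached 307 CPM in spleen and 41.7 in the female liver, and 27.9% of colon barcodes held a count in it. In 8 of the 10 regions, spleen was at least 2-fold above kidney and the male liver, as it was in 48.6% of all colon-high and 11% of tested regions. Per covered kb, colon was the highest organ in 2 of the 10, against 31.5% of colon-high and 5.21% of tested regions. The 2 regions were chr14:109540371-109545976, with 17.5 CPM per covered kb in colon, 17.0 in heart, 11.5 in lung and 16.5 in uterus, and chr9:121908938-121911690, with 38.5, 21.3, 14.7 and 21.3.

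The 11 regions that also passed per covered kb were chosen after their values were seen. The one with the largest ratio, chr3:132820345-132821405, had 48.3 CPM in colon, 3.60 in heart, 5.45 in lung and 0.54 in uterus, or 45.5, 12.4, 11.5 and 19.4 CPM per covered kb. Colon stood above the 3 others on both scales, as the choice of the 11 fixed. The region had 55.5 CPM in spleen, 71.2 in the female liver, 2.83 in kidney and 7.69 in the male liver. At chr13:60854770-60857033 the level was 122 CPM in colon, 8.16 in heart, 22.1 in lung and 1.68 in uterus, or 54.0, 12.4, 18.3 and 18.7 per covered kb. The male liver had no peak there and spleen had 65.7 CPM. At chr7:171401145-171402792, with 70.7 CPM in colon, 2.95 in heart, 13.6 in lung and 3.39 in uterus, the female liver reached 104 CPM and spleen 25 CPM. Spleen was at least 2-fold above kidney and the male liver in 9 of the 11, against 48.6% of colon-high and 11% of tested regions. The 2 exceptions were chr2:73341365-73343207, where kidney had 43.0 CPM and spleen 23.5, and chr8:128927721-128928992, where kidney had 17.9 CPM and spleen 30.8.

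The 10 regions with the lowest colon ratio all had very short colon peaks, of 1 to 391 bp. At chr7:45423389-45425389, colon had 3 counts in an 8-bp peak, 0.04 CPM (0.0091 to 0.13), against 55.1 CPM in heart, 23.7 in lung and 41.5 in uterus. At chr7:18215989-18218468, colon had 0 counts in a peak of 1 bp, which allows up to 0.108 CPM, while heart had 53.0, lung 12.8 and uterus 17.4 CPM. In these regions the colon value rests on little or no covered sequence. The lowest ratios among regions of like covered length, also chosen after the values were seen, rest on longer peaks. At chr19:3242485-3245406 the level was 10.9 CPM in colon (9.81 to 12.0), 101 in heart, 90.9 in lung and 122 in uterus, with 1596, 2564, 2922 and 2306 bp covered. Per covered kb, colon had 6.81 CPM and the others 31.1 to 52.8. At chr16:17862639-17864714 colon had 7.32 CPM, heart 66.1, lung 50.4 and uterus 42.5, and 1.87% of colon barcodes held a count against 11.5% to 18.6% in the other organs. At chr9:100346569-100351211, colon had 12.6 CPM, heart 154, lung 76.9 and uterus 108, whereas kidney had 99.1 and spleen 25.3. That colon is lowest in CPM and per covered kb in these regions follows from how they were picked.

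**Figure D2:**
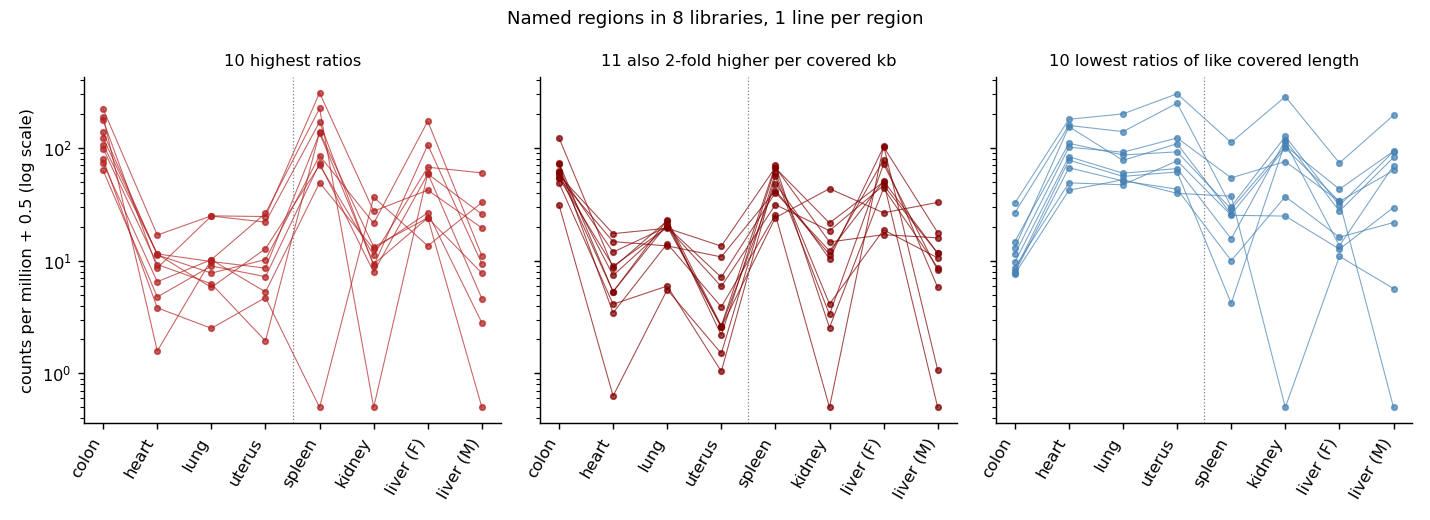
Levels (CPM + 0.5, log axis) of named regions in 8 libraries, with 1 line per region and the 4 libraries that the choice did not use to the right of the dotted line. F and M mark the female and the male liver, and points at the bottom are regions with no peak in that library, such as the first colon-high region in spleen at 0 CPM.

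The libraries of spleen, kidney and the 2 livers were not used to choose the colon-high and colon-low regions. Spleen is rich in B and T lymphocytes and in macrophages, whereas kidney and liver consist largely of epithelial cells (tubule cells and hepatocytes). Of the 691 colon-high regions, 336 (48.6%, against 11% of tested regions) were at least 2-fold higher in spleen than in both kidney and the male liver and are called spleen-shared below. Another 112 (16.2%, against 30.6% of tested regions) were at least 2-fold higher in kidney or in the male liver than in spleen, 54 of them in both, and are called kidney- or liver-shared. The other 243 met neither rule. The names stand for these rules only, which do not compare spleen, kidney or liver with colon. These subsets were cut on spleen, kidney and the male liver, so that their levels in those libraries follow from the rule, and the female liver was used for neither choice. Among colon-low regions the proportions were 332 (13.2%) and 1395 (55.5%).

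In the spleen-shared regions the median level was 71.2 CPM in colon, 64.9 in spleen, 56.0 in the female liver, 7.44 in kidney and 7.95 in the male liver. Of these 5 libraries, the female liver was the only one that no choice used. It lay below colon there, which the choice of a high colon level makes likely. In the kidney- or liver-shared regions the medians were 34.1 CPM in colon, 28.0 in kidney, 26.3 in the male liver, 14.8 in the female liver and 6.42 in spleen. The female liver held 728 kept barcodes and 1978404 counts and was the shallowest library, and the male liver held 11935 barcodes. With the female liver in place of the male one, 61 of the 691 met the rule for spleen (8.83%, against 3.8% of tested regions) and 149 that for kidney or liver (21.6%, against 30.7%), and 52 of the 336 spleen-shared regions met the rule for spleen. Covered length moved with these sets too, with a median of 2469.5 bp in spleen, 577.5 bp in kidney and 760.5 bp in the male liver in spleen-shared regions. In the female liver it was 2169.5 bp in spleen-shared and 1016.5 bp in kidney- or liver-shared regions, with 25.7 and 12.5 CPM per covered kb. Per covered kb, the rule for spleen was met by 186 of the 691 colon-high regions (26.9%, against 6.77% of tested regions) and that for kidney or liver by 81 (11.7%, against 17.9%). Of the 336 and 112 regions chosen in CPM, 180 and 70 met their rule per covered kb as well. Of all 691 regions, spleen reached at least 50% of the colon level in 507 (73.4%, against 85.4% of tested regions), the female liver in 500 (72.4%, against 84.8%), kidney in 174 (25.2%, against 81.1%) and the male liver in 161 (23.3%, against 78.2%). The shares lie below those of the tested regions as the choice of a high colon level makes likely, and nothing is read from that. In 43 regions (6.22%, against 1.96% of tested regions) none of the 4 libraries reached that level, which the choice also favours. Spleen, kidney and the male liver came from the other animal, so that organ and animal cannot be told apart in this comparison.

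**Figure D3:**
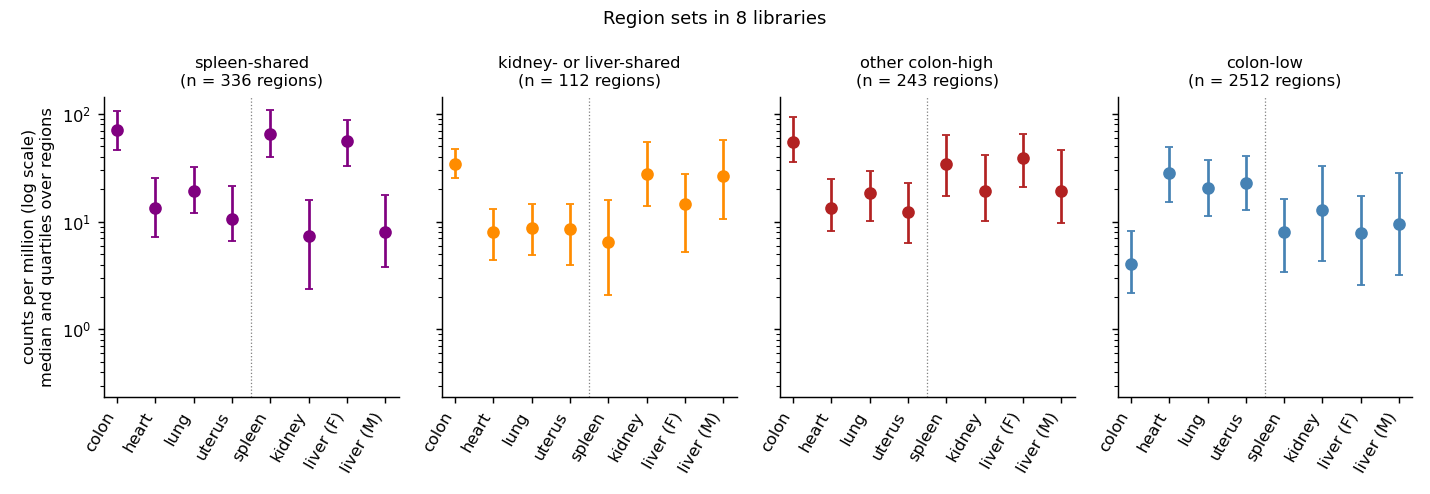
Median level and quartiles over regions (CPM, log axis) of 4 region sets in 8 libraries, with F for the female and M for the male liver, where spleen, kidney and the male liver, right of the dotted line, were used to split the colon-high regions into the first 3 sets. The female liver, used for no set, had 56.0 CPM in the spleen-shared set, where colon had 71.2 CPM, and 14.8 CPM in the kidney- or liver-shared set, where colon had 34.1 CPM. Its peaks covered a median of 2169.5 bp in the spleen-shared and 1016.5 bp in the kidney- or liver-shared set.

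Detection rate is the share of colon barcodes with at least 1 count in a region. Its median was 13.1% in colon-high regions, 1.21% in colon-low regions, 15% in the regions even over the 4 organs and 6.63% in all tested regions. The spleen-shared set was detected in a median of 15.4% and the kidney- or liver-shared set in 7.87% of colon barcodes. After thinning every colon barcode to 500 fragments, which kept all 12404, the median of the colon-high regions was 1.58% (for a single region at this rate, the exact binomial interval is 1.37% to 1.82%) and that of the colon-low regions 0.185%. Thinned in the same way, colon-high regions were detected in a median of 0.479% of heart, 0.602% of lung and 0.555% of uterus barcodes. That these values lie below that of colon follows from the levels the regions were chosen on. Few shared regions were widely detected in colon. A rate of at least 50% was reached by 25 of 23076, 1 of them colon-high, and 1969 regions were below 1%, of which 1034 were colon-low and none colon-high. Of all tested regions, 10.9% were colon-low and 2.99% colon-high. Detection in colon rises with the colon level on which both sets were chosen, so that nothing is read from these differences.

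The spread among colon cells was measured as the squared coefficient of variation of the rate per barcode beyond counting error, where 0 means that barcodes differ only by depth and counting. The median was 0.38 in the regions even over the 4 organs, 1.0 in all tested regions, 0.80 in colon-high and 5.12 in colon-low regions. The colon value of the colon-low regions rests on few fragments, with a median of 0.0129 per cell, as their choice fixed, against 0.111 in heart. In the 1005 of the 2512 that held at least 200 colon fragments, the median spread was 3.69 in colon at 0.0289 fragments per cell, 0.63 in heart, 1.19 in lung and 1.04 in uterus at 0.107 to 0.184 fragments per cell. The part of this difference in level in the spread was not tested. Within the colon-high regions, the spleen-shared set had a median of 0.72 and the kidney- or liver-shared set one of 2.01. In the other organs, colon-high regions had a median spread of 0.97 in heart, 1.68 in lung and 0.89 in uterus, at 0.0463 to 0.0519 fragments per cell against 0.162 in colon, a difference in level that their choice fixed. Of the 1950 most variable of the 19498 regions with at least 200 colon fragments, 517 (26.5%) were colon-low, 9 (0.462%) colon-high and 38 (1.95%) even over the organs, against 5.15%, 3.54% and 31.7% of all 19498. Of the 1950 least variable, 1399 (71.7%) were even over the organs, 9 were colon-high and none was colon-low. The level moved with the spread, with a median of 8.27 CPM in colon in the most variable and 112 CPM in the least variable regions.

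**Figure D4:**
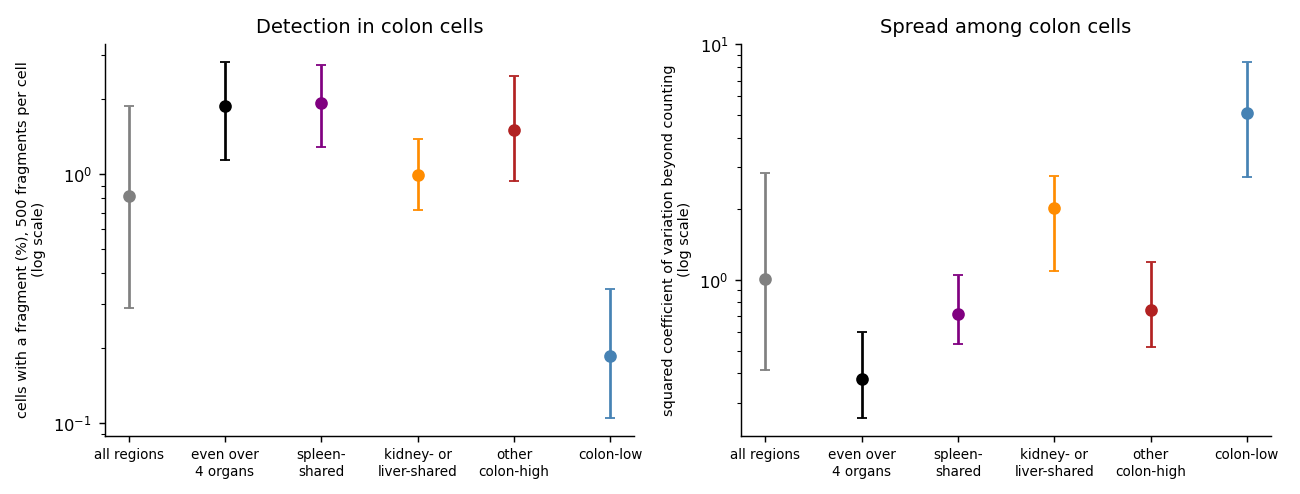
Detection and spread among the 12404 colon cells by region set, with points for the median over regions and bars for the quartiles (log axes). The left panel gives the share of cells with a fragment after thinning to 500 fragments (1.58% in all colon-high regions), and the right panel the squared coefficient of variation beyond counting, with 5.12 in colon-low and 0.38 in even regions.

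To see which cells carried these regions, colon cells were clustered on the peaks of odd-numbered chromosomes and described on the even-numbered ones and X, where 150 spleen-shared, 50 kidney- or liver-shared and 1289 colon-low regions lay. Levels are given in FPM, the fragments in the set for every 1000000 fragments in shared regions of these chromosomes. Each of the 19 clusters was assigned to the set in which it stood highest relative to the whole library, so that the ranking of the 3 groups in their own set is fixed by this choice. No cell type was named, since marker lists could not be read without an annotation of this build.

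The spleen-shared group comprised 9 clusters with 7240 cells, 58.4% of the colon cells. Its clusters had 25829 to 38650 FPM in the spleen-shared regions and 9832 to 12708 in the colon-low regions, against 25964 and 20421 over all colon cells. In the spleen-shared regions, cluster 12 (25829, 479 cells) lay below the level of the whole library and clusters 10, 7 and 4 (26187, 26441 and 26691) just above it, and these 4 clusters were set apart by their low level in the other sets. The kidney- or liver-shared group comprised 4 clusters with 3077 cells (24.8%), with 6021 to 8664 FPM in its own set and 18201 to 28175 in the colon-low regions. The smallest of them, with 79 cells, consisted entirely of likely doublets and had a median of 8878 fragments per cell and 28537 FPM in the spleen-shared regions. The remaining 6 clusters, with 2087 cells (16.8%), were assigned to the colon-low set and are called the colon-low group. The median number of fragments per cell differed between the groups, with 4793.5, 3597 and 1820, and its part in these levels was not tested.

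The 6 clusters of the colon-low group were not alike. In 4 of them (clusters 5, 14, 16 and 17 with 942, 326, 180 and 175 cells) the level was 74786, 73865, 78360 and 83478 FPM, and in the 2 others 35678 (cluster 15) and 30638 (cluster 18), close to the 28175 of the highest kidney- or liver-shared cluster. Cluster 18 also had 22754 FPM in the spleen-shared regions. The library levels of the same regions were 103094 in heart, 81564 in lung and 92936 in uterus, against 20421 over all colon cells. The 4 clusters thus lay near the level of the lung library and the others of the 6 well below the 3 organs. Fragments are counted in each library's own peaks, which in colon-low regions covered a median of 558.5 bp in colon and 1164 bp in lung. The levels are therefore not of the same stretch, and the lung clusters themselves ranged from 24312 to 106893 FPM. Together, the 2087 cells gave 8.94% of the colon fragments and 36.1% of the fragments in colon-low regions. The spleen-shared group gave 36.3% of the latter with 67.4% of the colon fragments, and the kidney- or liver-shared group 27.6% with 23.6%. In the kidney- or liver-shared regions, 55.1% of the fragments came from the spleen-shared group and 38.8% from their own group. In the spleen-shared regions, 84.3% came from their own group. Conversely, some clusters of the other organs were low at the colon-low regions and high at the spleen-shared ones, relative to their library. Cluster 16 of lung, with 203 cells, had 24312 FPM in colon-low and 22114 in spleen-shared regions. Cluster 10 of heart, with 110 cells, had 20215 and 15404. Lung clusters 4, 8, 10, 12 and 20 were less extreme, with 26849 to 51819 and 13622 to 19570. Cluster 7 of heart had 55593 and 12459, and cluster 11 of uterus, with 156 cells, had 36115 and 10035.

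Single regions showed how the groups differed, with the reservation that they belonged to the sets used to assign clusters, except for the fourth colon-high region. At chr16:17862639-17864714, the colon-low region given above, the colon-low group had 116 FPM (100.4 to 133), against 3.87 in the spleen-shared and 6.69 in the kidney- or liver-shared group. At the second colon-high region, chr6:116867583-116876719, the spleen-shared group had 378 FPM (367 to 390), with 93.9 and 95.3 in the 2 other groups. At chr14:112086112-112091368, the fourth colon-high region, which was neither spleen-shared nor kidney- or liver-shared, the kidney- or liver-shared group was highest with 365, followed by the spleen-shared group with 249 and the colon-low group with 91.9. Of the 15 colon-high regions of like covered length, chosen after the values were seen, the 2 kidney- or liver-shared ones on these chromosomes were highest in the spleen-shared group, with 76.2 against 60.8 FPM and 150 against 47.4 FPM in the kidney- or liver-shared group. Of the 1289 colon-low regions on these chromosomes, 520 held at least 200 fragments, which a region can reach through the group where it is high. Of the 520, 450 had their highest level in the colon-low group, against 29.9% of all such tested regions. Of the spleen-shared regions, 136 of 150 were highest in the spleen-shared group (42.5% of tested regions), and of the kidney- or liver-shared regions, 28 of 50 were highest in their own group (27.5% of tested regions) and 20 in the spleen-shared group. The clusters had been assigned on these same regions, so that the assignment favours these shares and nothing is read from them. Clustering on the even-numbered chromosomes instead put 12204 of the 12404 cells (98.4%) into the same group.

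**Figure D5:**
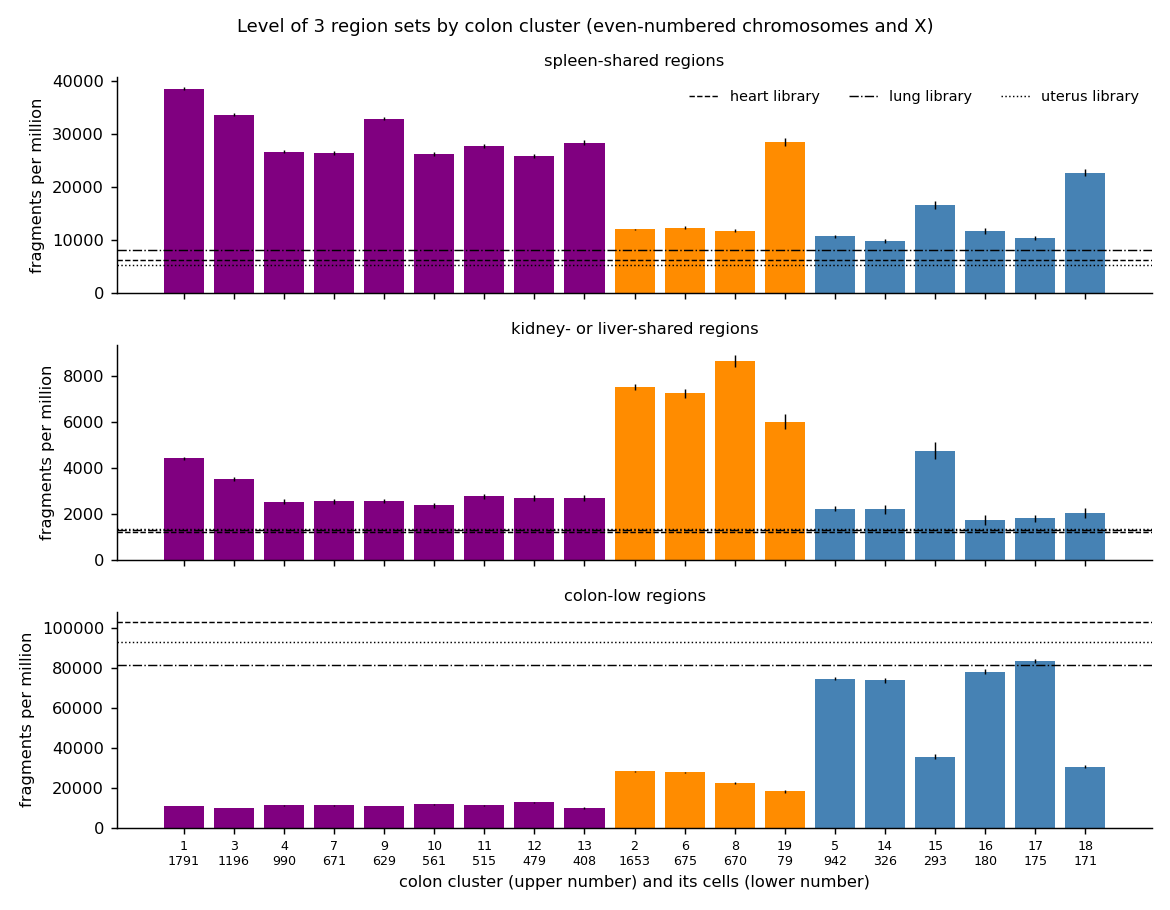
Level of 3 region sets (FPM, with exact Poisson intervals) in the 19 colon clusters, coloured by the group each was assigned to, with lines for the levels of the heart, lung and uterus libraries. In the lower panel, clusters 5, 14, 16 and 17 (73865 to 83478) lie near the lung line (81564), and the spleen-shared clusters lie between 9832 and 12708. Fragments are counted in each library's own peaks, which cover different lengths, so that bars and lines are not of the same stretch.

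The study printed the positions of the loci of EGFL7, which encodes a protein secreted by endothelial cells, and JCHAIN, which encodes the joining chain of IgA and IgM, and these windows were left out of the clustering. In the widest shared region of the EGFL7 window, chr15:1785716-1810366, colon had 78.1 CPM, heart 470, lung 467 and uterus 154, with 8993, 22285, 24513 and 7577 bp covered. Of the 2 other shared regions of the window, chr15:1819018-1823375 was colon-low, with 11.5 CPM in colon, 105 in heart, 93.4 in lung and 41.9 in uterus, and chr15:1777272-1781495 was neither, with 59.7, 49.1, 63.7 and 40.5 CPM. Within colon, the window was most open in clusters 17 and 16, with 601 (548 to 658) and 504 (438 to 578) FPM of all peaks, both of the colon-low group. The other clusters of that group were uneven, with 300.2 FPM in cluster 15 and 69.1, 73.1 and 62.5 in clusters 5, 14 and 18, while the kidney- or liver-shared group had 173 FPM and all colon cells 91.7. Neither of the 2 shared regions of the JCHAIN window was colon-high. The one with the larger difference, chr5:63574358-63577617, had 97.1 CPM in colon, 61.7 in heart, 60.2 in lung and 53.0 in uterus. Peaks covered 3260, 2284, 2444 and 1935 bp of it, so that the covered length was also longest in colon. Kidney had 123 CPM there, the male liver 97.0, the female liver 88.5 and spleen 80.9. Within colon, the JCHAIN window had 280 FPM in the spleen-shared group (275 to 286), 132 in the kidney- or liver-shared group and 149 in the other cells. Within the spleen-shared group, clusters 1, 3, 9 and 11 had 281 to 365 FPM and the other 5 clusters 120 to 175 FPM, so that the group value was carried by those 4.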

How the data were processed

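The single-cell ATAC-seq libraries were processed by the authors with Cell Ranger ATAC 1.2.0 (per the submitters' processing notes), and the deposited counts are cut ends per peak and barcode, with peaks called in each library separately and no normalization. Most nonzero colon counts per peak and barcode (89.8%) were even, because both ends of a fragment usually fall in 1 peak. The share was 79.8% in heart, 85.0% in lung and 75.7% in uterus. In each library, fragments were taken as counts divided by 2 and rounded up. Precision is limited by depth, which ranged from 41721017 (uterus) to 110748462 (colon) counts over the 4 organs. All samples were grouped by the organ in the labels.

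Barcodes under 1000 counts were left out. Peaks were merged at an overlap of at least 1 bp, and regions with under 200 counts over the 4 libraries were not tested. Doublets were kept. For an alternative without doublets, the barcodes with the highest score from 2 simulated doublets per cell among 50 neighbours were removed up to a number set in advance, the square of the cell number divided by 100000, which is 1538 (12.4%) in colon. Colon peaks outside the windows of EGFL7 and JCHAIN were weighted by TF-IDF (how often a peak is open in the cell and how rarely in others), reduced to 30 components and clustered with the Leiden method on 20 nearest neighbours at resolution 0.8 (leidenalg 0.10.2, igraph 0.11.9, numpy 2.4.6, scipy 1.17.1, pandas 2.3.3, scikit-learn 1.9.0, Python 3.11.15). The scripts were tested on simulated data. Intervals are exact Poisson on fragments or exact binomial at 95% and cover counting error only.

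The named regions were the 10 highest and 10 lowest ratios of colon to the nearest other organ among regions with at least 50 CPM in 1 of the 4 organs. The organs, region sets and lists were chosen with earlier results of these data known. Gene and marker lists were not used. In the gene table at hand, which is of another assembly, 4.31% of 42428 ends of protein-coding genes lay in colon peaks, which cover 3.33% of the span, so its positions could not be applied. No build for the scATAC-seq peaks is named in the sources at hand. Alternatives were other scalings, merging rules, pseudocounts, folds, barcode minimums, doublet removal and cluster resolutions and, chosen after the data were seen, levels per covered kb and regions of like covered length.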

Additional observations from a re-analysis of the deposited data

How the results depend on the processing

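No paired analysis was possible because no result comes from a test. The number of colon-high regions, 691, was 392 with CPM of all peaks, 345 in regions with 1 peak per library and at most 3000 bp, 15 where peaks of every library cover at least 50%, 428 with each barcode counted once, 1747 at 1.5-fold and 98 at 4-fold. It was 11 per covered kb and 15 at like covered length, both chosen after the data were seen. The number of colon-low regions, 2512, was 906 at 50% cover, 1284 with a pseudocount of 5 CPM, 4106 at 1.5-fold, 710 at 4-fold and 1071 at like covered length. The 1-peak, cover and length settings also test fewer regions, 17547, 10795 and 12637. Of these, 1.97%, 0.139% and 0.119% were colon-high, against 2.99% in the main setting. The colon-low shares were 11%, 8.39% and 8.48%, against 10.9%. Per covered kb, the log2 ratio turned below 0 in 8 of the 10 named colon-high regions, at -0.83, -0.66, -0.040, -1.20, -0.12, -0.56, -0.15 and -0.35 for ranks 1, 2, 4, 6, 7, 8, 9 and 10. Spleen-shared regions numbered 61 with the female liver in place of the male one and 186 per covered kb, and kidney- or liver-shared regions 47 with CPM of all peaks. The median detection of 1.58% was 13.1% without thinning. The share of kidney- or liver-shared cells was 27.3% at resolution 0.4 and 24.0% without doublets, and that of the colon-low group 14.5% and 17.7%. The spread in regions with at least 200 colon fragments, chosen after the data were seen, was 0.80 for colon-high and 3.69 for colon-low regions. The spread with presence or absence per barcode gave no value, since that variance is fixed by the mean. Of 58 alternative values of the main results, the other 37 stayed within 1.5 times (counts, spread) or within the binomial interval (shares, and detection of 1 region at the median rate). Apart from the smaller number of regions, the cause of the moves was not tested.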
